A study of Rattus norvegicus with 16 samples.

Results

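Gene expression was compared between female rats of the F3 generation whose ancestors had been exposed to an EDC mixture (F3 EDC, 4 libraries) and female rats of the F1 generation exposed to it directly (F1 EDC, 4 libraries). These 8 libraries were taken by generation and treatment, out of 16 in the study. The other 8 are the vehicle groups, F1 control and F3 control, with 4 libraries each. All animals were Wistar rats aged 21 days, and the tissue was hypothalamus, which the labels call MBH-PoA. The mixture or the vehicle was given in food along the maternal lineage, starting 2 weeks before gestation and ending with lactation. F1 rats were thus exposed before birth and while nursing, and the labels describe F3 rats as ancestrally exposed. No transgene or deletion is described for any group. The titles of all 8 EDC samples carry the word Control, so the groups were taken from the source descriptions, which match the treatment fields. The labels do not say whether rats of a group were littermates, so p-values measure only the spread between these libraries.

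Endocrine disrupting chemicals (EDC) are compounds that interfere with hormone synthesis, transport or action. The hypothalamus is a target of such compounds because its neurons read sex steroids, glucocorticoids and metabolic hormones and control puberty, maternal care, feeding and stress responses. When a pregnant female is exposed, the F1 fetus and the germ cells inside it, which give rise to F2, are exposed too. F3 is therefore the first generation of the maternal line without direct contact, and setting it against F1 places ancestral beside direct exposure. No lane number is shared by libraries of F1 and F3, so in any contrast between them generation and run cannot be told apart. A change in expression per cell and a change in the number of cells of a type cannot be told apart in whole tissue either.

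The deposited files list genes by Ensembl rat identifiers and do not pair them with names, and 0 of the 32883 identifiers could be paired with a symbol through the gene table used here. The results are therefore given for groups of genes, defined by level, size of change and pattern over the 4 groups of rats, and for 4 identifiers. Pathways, cell type markers and the labelled tissue were not checked, and no sequence is printed.

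The main axis of variation among the 8 EDC libraries set F1 EDC apart from F3 EDC. Gene counts per library ran from 9859178 to 35981898 in F1 EDC and from 10285902 to 30850837 in F3 EDC. In a principal component analysis of log2 CPM (normalised gene counts on a common total, computed here) over the 15366 genes tested, the first component held 67.3% of the variance. The F1 EDC libraries scored -62.3, -62.5, -59.6 and -57.1 on it in replicates 1 to 4, and the F3 EDC libraries 59.7, 59.04, 62.9 and 59.9. The gap between the groups was thus far wider than the spread within either. The second component, with 8.79% of the variance, set F3 EDC replicate 4 apart at 52.6, whereas the other 7 libraries lay between -25.5 and 4.35. Across genes, which are not independent replicates, correlations of log2 CPM were 0.972 to 0.977 between F1 EDC libraries and 0.966 to 0.988 between F3 EDC libraries. Between an F1 EDC and an F3 EDC library they were 0.903 to 0.917. F3 EDC libraries were closer to the controls: 0.964 to 0.984 with F3 control, and 0.948 to 0.970 with F1 control. F1 EDC libraries lay about as far from the controls as from F3 EDC: 0.904 to 0.916 with F3 control, and 0.897 to 0.914 with F1 control. Biological variation between rats of a group was alike in size, with a coefficient of 15.3% in F1 EDC and 15.5% in F3 EDC.

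Library composition differed between the EDC groups as well. Reads mapping to several places made up 51.6%, 46.7%, 44.9% and 41.8% of all reads in F1 EDC replicates 1 to 4. In F3 EDC they made up 15.7%, 23.1%, 15.7% and 44.4%, so replicate 4 alone lay within the F1 EDC range. Unmapped reads averaged 4.24% ± 0.244 in F1 EDC and 4.72% ± 1.06 in F3 EDC (SD, n = 4), with overlapping ranges. The share of stranded gene counts on the opposite strand was 1.56% to 1.64% in F1 EDC and 1.77% to 1.85% in F3 EDC, without overlap. Genes with at least 1 count numbered 17762 ± 331 in F1 EDC and 18413 ± 899 in F3 EDC (SD, n = 4). After every library was thinned to 5655354 gene counts, they numbered 16989 ± 107 and 16938 ± 186, and the groups overlapped. The part of these measures in the results below was not tested, except where a value is given.

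**Figure D1:**
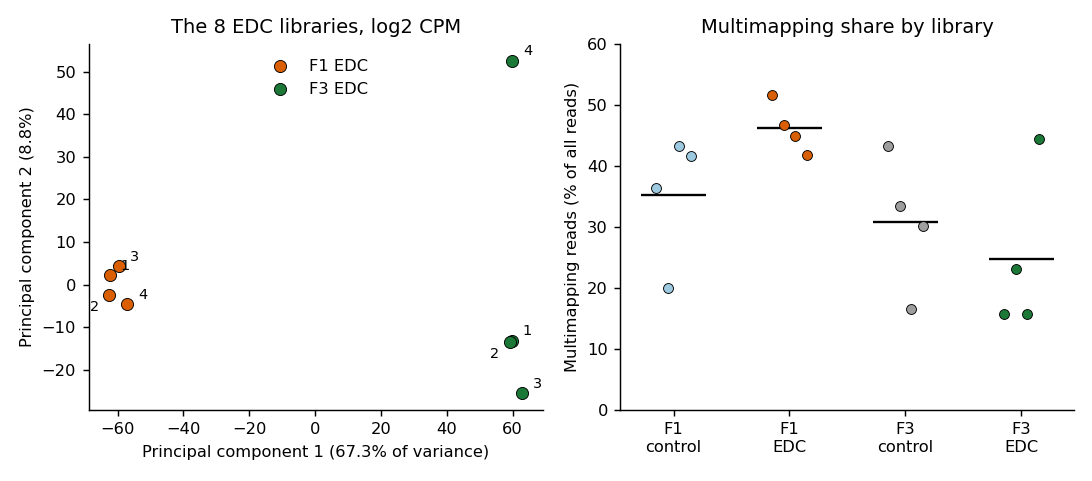
Left, scores of the 8 EDC libraries on the first 2 principal components of log2 CPM, numbered by replicate. Right, reads mapping to several places as a percentage of all reads in each of the 16 libraries (points) with the group mean (line). The first component parts the 2 EDC groups, and F3 EDC replicate 4, at 44.4% multimapping reads, stands apart on the second.

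More than 50% of the genes tested differed between F3 EDC and F1 EDC rats. By edgeR's quasi-likelihood test with Benjamini-Hochberg adjustment at 0.05, 8216 of 15366 genes (53.5%) were called, 4146 of them higher (27.0%) and 4070 lower (26.5%) in F3 EDC. The median log2 fold change was 0.76 among the genes that were higher and -0.69 among those that were lower. Over all genes tested it was 0.01. For 7917 genes (51.5%), the 4 F3 EDC values did not overlap the 4 F1 EDC values, being higher in 25.8% of genes and lower in 25.7%. The same generation contrast in vehicle rats, F3 control against F1 control, called 4233 genes (27.5%), 2250 higher (14.6%) and 1983 lower (12.9%). The median absolute log2 fold change over all genes was 0.46 in the EDC rats and 0.27 in the vehicle rats, with a median standard error of 0.15 in both contrasts. Both errors rest on a spread estimate shared by all 4 groups, although the vehicle groups varied more. Fits to the 8 control libraries alone and to the 8 EDC libraries alone called 3430 and 8628 genes.

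The largest changes were more often increases than decreases from F1 EDC to F3 EDC. Among the called genes, 1490 rose and 1250 fell by more than 2-fold from F1 EDC to F3 EDC. Over 4-fold there were 479 higher and 325 lower, and over 8-fold 183 higher and 100 lower. With upper quartile factors the counts past 2-fold were level, at 1369 higher and 1371 lower, whereas past 4-fold they were 450 and 350, and past 8-fold 177 and 102. Without F3 EDC replicate 4, 164 genes were over 8-fold lower. In the vehicle rats, 472 called genes rose and 105 fell by more than 2-fold from F1 to F3, and 48 and 18 did so by more than 4-fold. A stricter test, which asks whether a change exceeds 2-fold (edgeR's glmTreat, chosen after seeing the data), called 790 genes higher and 526 lower in F3 EDC than in F1 EDC at an adjusted p of 0.05. In the vehicle rats it called 114 higher and 0 lower. At an unadjusted p under 0.05, glmTreat gave 315 higher and 61 lower genes in the vehicle contrast.

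**Figure D2:**
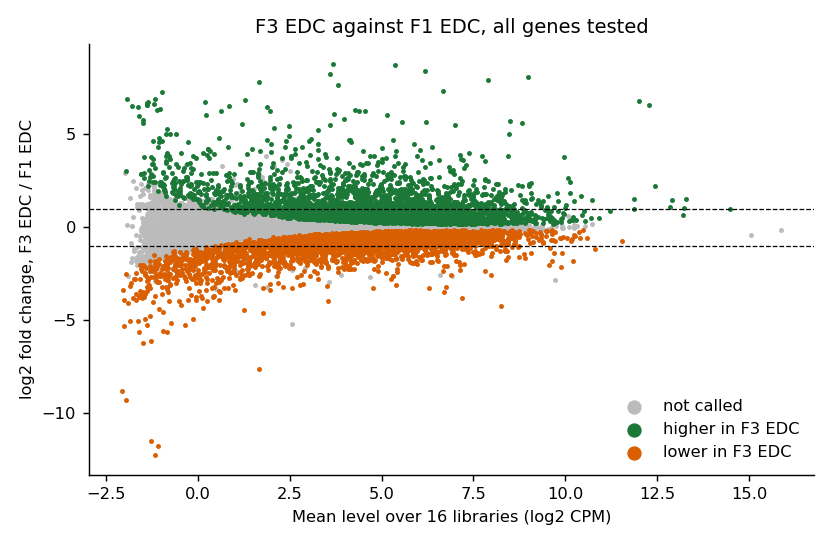
Each point is 1 of the 15366 genes tested, with its mean level over the 16 libraries (log2 CPM, x axis) and its log2 fold change between F3 EDC and F1 EDC (y axis). Coloured genes passed an adjusted p of 0.05 and dashed lines mark 2-fold. Past 8-fold lie 183 genes that were higher and 100 that were lower in F3 EDC.

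Genes were next grouped by level. A mean over all 16 libraries is itself moved by a change found in F1 EDC alone, so counts by direction were taken over classes of the average of the F1 EDC and F3 EDC mean levels (log2 CPM), a choice made after seeing the data. From 3 to 6 log2 CPM, 589 called genes lay more than 2-fold higher in F3 EDC and 431 more than 2-fold lower, and past 4-fold the counts were 154 and 37. Above 6 log2 CPM the counts past 2-fold were 259 higher and 167 lower, with 51 and 18 past 4-fold. From 0 to 3 they were 476 and 493 past 2-fold, and below 0 they were 166 and 159. With classes of the mean over 16 libraries, the counts below 0 were 129 and 222, so the order among scarce genes depended on how the level was taken. By mean level over the 16 libraries, the share of genes called rose with level: 24.2% of 1452 genes below 0 log2 CPM, 37.8% of 3707 from 0 to 3, 59.1% of 7129 from 3 to 6, and 73.1% of 3078 above 6. In the vehicle rats these shares were 3.58%, 10.4%, 32.3% and 48.4%. More counts give smaller errors, so a share called depends on the level as well as on the size of change. The median absolute log2 fold change in the EDC rats was 0.92 in the lowest class and 0.39 in the highest.

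**Figure D3:**
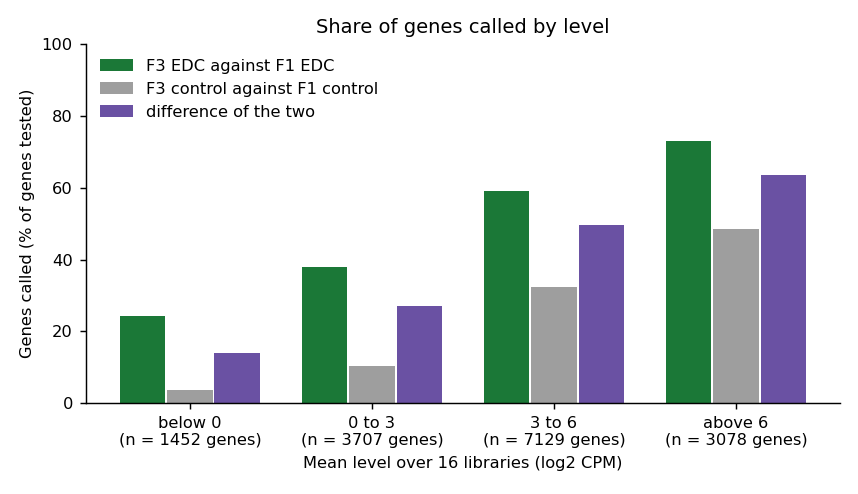
Bars give the percentage of genes past an adjusted p of 0.05 in 4 classes of mean level, for the EDC contrast, the vehicle contrast and their difference. The EDC contrast calls the most genes in each class, from 24.2% in the lowest to 73.1% in the highest.

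The 183 genes that were over 8-fold higher in F3 EDC held a larger share of the gene counts in the other 3 groups than in F1 EDC. They made up 4.55% ± 0.206 of the gene counts in F3 EDC, 4.36% ± 0.768 in F3 control and 4.92% ± 1.38 in F1 control, against 0.120% ± 0.00291 in F1 EDC (SD, n = 4 each). Single libraries ranged from 4.28% to 4.78% in F3 EDC and from 0.116% to 0.122% in F1 EDC. The genes were chosen by their difference between these EDC groups, so that difference is a description. The levels in the control groups did not enter the fold change used to choose them. The 10 most counted of them carried 82.1% of the set's counts in F3 EDC, and the median level there was 3.72 log2 CPM. Of the 183 genes, 147 (80.3%) had F1 EDC values below all other 12 libraries, against 14.7% of all genes tested, and the choice of genes favours this. The 100 genes over 8-fold lower in F3 EDC had a median level of 1.85 log2 CPM in F1 EDC, and the 10 most counted carried 90.5% of the set's counts there. The set made up 0.0444% ± 0.0103 of the counts in F3 EDC and 0.674% ± 0.0248 in F1 EDC (SD, n = 4). In F3 control and F1 control they held 0.0531% ± 0.00963 and 0.0728% ± 0.0149 (SD, n = 4).

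The wider set behaved alike. The 1490 genes over 2-fold higher in F3 EDC held 21.2% ± 0.974 of the counts there and 6.66% ± 0.397 in F1 EDC, with 22.0% ± 2.48 in F3 control and 17.6% ± 2.34 in F1 control (SD, n = 4). The 1250 genes over 2-fold lower held 2.86% ± 0.180 in F3 EDC and 9.13% ± 0.239 in F1 EDC, with 2.91% ± 0.137 in F3 control and 3.15% ± 0.349 in F1 control (SD, n = 4). The F3 EDC mean thus lay between the means of the vehicle groups in the first set and below both in the second. In the second set, however, the F3 EDC libraries overlapped those of both vehicle groups. Choosing genes that are low in F3 EDC also favours a low mean there.

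Few genes were all but absent from 1 EDC group. In F1 EDC, 30 of the tested genes had at most 3 counts over the 4 libraries together. Of these, 9 averaged at least 1 CPM in F3 EDC. In F3 EDC, 13 genes had at most 3 counts over 4 libraries, and 10 of them averaged at least 1 CPM in F1 EDC. Such genes pass the filter on low counts only through groups in which they are higher, so no count of calls is given for them. At this depth such genes were near the limit of detection, not shown to be silent.

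Whether the generation contrast differed between EDC and vehicle rats was tested as the difference between the 2 log2 fold changes. That difference was called for 6699 genes (43.6%) by the same edgeR test and threshold. With its sign kept, the F3 minus F1 change was more positive in the EDC rats for 3349 of them (21.8%) and more negative for 3350 (21.8%). These counts give the sign of the difference, not which contrast had the larger change in size. Of the 8216 genes called between F3 EDC and F1 EDC, 5418 (65.9%) also passed this test, which uses the same EDC libraries. Their median absolute log2 fold change was 0.83 in the EDC rats and 0.22 in the vehicle rats. The difference was called for 1159 of the 1490 genes over 2-fold higher in F3 EDC and for 954 of the 1250 over 2-fold lower, in the same direction as the EDC contrast. For the 183 genes over 8-fold higher it was called in 170, and for the 100 over 8-fold lower in 59. Choosing genes by the EDC contrast favours such calls. The median levels of these 2 sets over the 16 libraries were 2.66 and -0.65 log2 CPM, and fewer counts give larger errors. Their shares called are therefore not comparable.

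The called genes were grouped according to what the vehicle rats showed. The vehicle contrast called 33.5% of the 8216 genes, against 27.5% of all genes tested. The largest held 3835 genes (46.7% of the 8216) that were called in the EDC rats and in the difference but not in the vehicle rats. It had 1897 higher and 1938 lower in F3 EDC, with median absolute log2 fold changes of 0.89 in the EDC rats and 0.15 in the vehicle rats. A second group of 1807 genes (22.0%) was called in the same direction in both contrasts, 1089 higher and 718 lower in F3. Within it, the difference was not called for 1169 genes, whose median absolute changes were 0.54 in EDC and 0.52 in vehicle rats. It was called for 435 genes with the larger change in the EDC rats (1.20 against 0.45) and for 203 genes with the smaller (0.46 against 1.11). Of those 203, 190 were higher in F3. Another group of 945 genes (11.5%) was called in opposite directions in EDC and vehicle rats, 487 higher and 458 lower in F3 EDC. The difference was called for all 945, which choosing genes called in opposite directions in the same fit nearly fixes in advance. Their median absolute change was 0.56 in the EDC rats and 0.45 in the vehicle rats. The remaining 1629 genes (19.8%) were called in the EDC rats but neither in the vehicle rats nor in the difference. For these, a p that missed the threshold does not show that the contrasts were alike: the medians were 0.56 and 0.19. A further 1481 genes (9.64% of all genes tested) were called in the vehicle rats only. Their median absolute changes were 0.51 there and 0.13 in the EDC rats, where the contrast was not past the threshold.

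**Figure D4:**
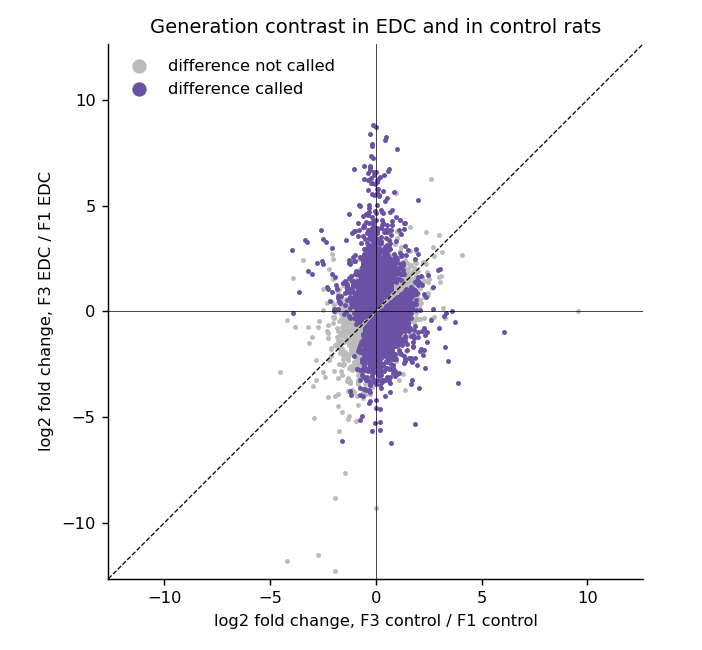
Each point is a gene, with the log2 fold change of F3 control against F1 control (x axis) and of F3 EDC against F1 EDC (y axis). The 6699 purple genes differed between the 2 contrasts at an adjusted p of 0.05, and the dashed line marks equal changes. The cloud is stretched along the y axis, with median absolute changes of 0.46 on y and 0.27 on x.

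Placing each called gene among all 4 groups showed F1 EDC at the edge in most cases. Among the 4146 genes higher in F3 EDC, the F1 EDC mean was the lowest of the 4 group means for 3758 (90.6%), and all 4 F1 EDC libraries lay below all other 12 for 2235 (53.9%). Over all genes tested, F1 EDC lay below the other 12 libraries for 14.7%. Among the 4070 genes lower in F3 EDC, the F1 EDC mean was the highest for 3880 (95.3%), and all 4 libraries lay above the other 12 for 2350 (57.7%), against 15.5% of all genes tested. F3 EDC stood at the edge far less often. Its 4 libraries lay above all other 12 for 21 of the 4146 higher genes and below them for 49 of the 4070 lower genes, where the shares over all tested genes were 0.156% and 0.325%. These counts and the calls rest on the same libraries, so they describe where the called genes lay. Calling a gene already sets the order of its F1 EDC and F3 EDC means, which favours an F1 EDC mean at the edge. No share over all genes tested was computed for the order of the 4 means. Side by side, the median absolute log2 difference over the 8216 genes was 0.72 between F3 EDC and F1 EDC, 0.65 between F1 EDC and F1 control, 0.25 between F3 control and F1 control, and 0.14 between F3 EDC and F3 control. Pairs of these contrasts share libraries.

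A smaller set separated by generation in both treatments. All 8 F3 libraries lay above all 8 F1 libraries for 676 genes (4.40%) and below them for 389 (2.53%). Of these, 667 and 374 were called between F3 EDC and F1 EDC, which follows from how they were chosen (53.5% of all genes were called). Within those, the difference between EDC and vehicle rats was not called for 372 of the 667 and 256 of the 374. That difference was called for 43.6% of all genes tested and for 65.9% of the genes called between the EDC groups. Missing the threshold does not show that the contrasts were alike. Median log2 fold changes in the set above were 0.81 in the EDC rats and 0.86 in the vehicle rats. In the set below they were -0.54 and -0.39. Generation, lane and any handling that went with them cannot be told apart for these genes.

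The 4 identifiers with the smallest p in each direction (2 higher and 2 lower in F3 EDC, chosen also for groups that do not overlap) are given by library. What these genes encode is not stated in the files. ENSRNOG00000016013 was at 30.4, 25.2, 25.7 and 31.9 CPM in F1 EDC replicates 1 to 4 and at 249.6, 259.9, 258 and 255 CPM in F3 EDC. The vehicle rats lay with F3 EDC, at 257 to 314 CPM in F1 control and 253 to 285 CPM in F3 control. From F1 EDC to F3 EDC it rose 9.003-fold, by 3.17 on the log2 scale (SE 0.09; edgeR adjusted p = 9.40e-18), whereas the vehicle contrast was -0.09 (SE 0.08; edgeR adjusted p = 0.446). The difference between the contrasts was 3.26 on the log2 scale (SE 0.12; edgeR adjusted p = 2.18e-15).

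ENSRNOG00000037957 was at 6.75, 8.09, 8.12 and 9.14 CPM in F1 EDC and at 78.4, 80.7, 82.5 and 77.7 CPM in F3 EDC. Here the F3 EDC libraries lay above all other 12, a placement that is rare among the called genes, since F1 control ran from 57.4 to 67.6 CPM and F3 control from 61.1 to 71.5 CPM. Its log2 fold change was 3.30 in the EDC rats (SE 0.09; edgeR adjusted p = 9.40e-18) and 0.08 in the vehicle rats (SE 0.08; edgeR adjusted p = 0.496).

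ENSRNOG00000017445 was the identifier with the smallest p of all. It was at 2338, 2361, 2469.7 and 2596 CPM in F1 EDC and at 116, 126, 127 and 143 CPM in F3 EDC, a 19.1-fold difference. F3 EDC lay below all other 12 libraries: 173 to 196 CPM in F1 control and 148 to 160.3 CPM in F3 control. The log2 fold change was -4.25 in the EDC rats (SE 0.08; edgeR adjusted p = 1.38e-21) and -0.25 in the vehicle rats (SE 0.07; edgeR adjusted p = 0.00630), so the gene was lower in F3 in both, and the difference of -4.004 was past the threshold (SE 0.10; edgeR adjusted p = 1.57e-18).

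ENSRNOG00000018992 was at 1044, 985, 1063 and 874 CPM in F1 EDC and at 71.2, 67.9, 63.8 and 78.1 CPM in F3 EDC, a 14.1-fold difference. F3 control, at 67.2 to 76.4 CPM, overlapped F3 EDC, and F1 control lay at 76.7 to 98.5 CPM. The log2 fold change was -3.82 in the EDC rats (SE 0.09; edgeR adjusted p = 6.63e-19) and -0.28 in the vehicle rats (SE 0.08; edgeR adjusted p = 0.0133). Without F1 control replicate 4, the vehicle contrast of this gene no longer passed, at -0.23 (edgeR adjusted p = 0.0558).

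**Figure D5:**
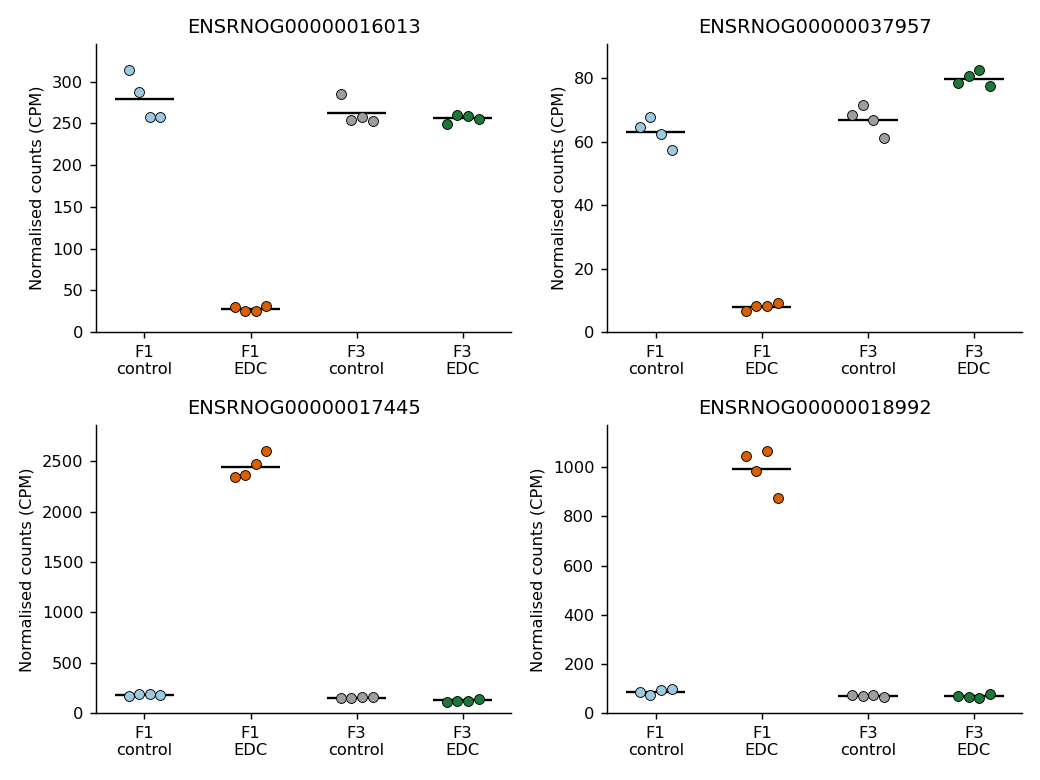
Normalised counts (CPM, axes from 0) of the 4 identifiers in each library (points, replicates 1 to 4 from left to right) with the group mean (line). The F1 EDC libraries lie apart from the other 12 in each panel, at 25.2 to 31.9 CPM for ENSRNOG00000016013 and 2338 to 2596 CPM for ENSRNOG00000017445.

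Each EDC library was also read in genes called without it, a check added after seeing the data. With 1 EDC library left out, edgeR called 7597 (without F3 EDC replicate 3) to 7893 genes (without F3 EDC replicate 4) between the EDC groups. F3 EDC replicate 4 could be read in 7833 of the genes called without it. It lay beyond all 4 F1 EDC libraries in the called direction for 7260 (92.7%) and on the called side of their mean for 7714 (98.5%). Those F1 EDC libraries entered the calls too, which favours such a placement. No such share was computed over all genes tested, and the EDC groups did not overlap for 51.5% of those. These shares are therefore a description, and the part of multimapping in them was not tested. The median difference of F3 EDC replicate 4 from the F1 EDC mean was 0.72 on the log2 scale, against 0.75 for the other 3 F3 EDC libraries. The other 7 EDC libraries, each left out in turn, lay beyond all 4 libraries of the other EDC group for 93.5% to 96.6% of such genes. The same limits hold for these shares. With the multimapping share as a covariate, 6660 genes were called between the EDC groups, 6391 of them among the 8216 and in the same direction.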

How the data were processed

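RNA was sequenced from the hypothalamus of 16 rats as single reads of 100 cycles on an Illumina HiSeq instrument, per the labels' protocols, which state 4 samples per lane. Trimmomatic 0.33, TopHat2 2.1 and the build rn6 appear in the submitters' processing notes. The deposited files hold raw read counts per gene in the layout the aligner STAR writes, with its version and annotation not given in the sources used here. The fourth column (1 strand) was used. It held at least 52.5 times the other strand's counts in each library, and the 4 summary lines stayed out of totals and tests.

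Testing used edgeR 4.0.16 under R 4.3.3 with TMM scaling (robust quasi-likelihood F test, 4 group means over 16 libraries, filterByExpr with a count minimum of 10, Benjamini-Hochberg adjusted p of 0.05, two-sided). CPM and log2 CPM (prior count 2) were computed here from the deposited counts. The standard error of a fold change was derived from its F statistic. The procedure was also run on simulated counts in which a small set of genes was changed in F3 EDC alone. In the real data 53.5% of genes were called between the EDC groups, so that run does not test the scaling under such wide change. No replicate pair was identical or agreed within sampling noise: squared differences were at least 9.65 times those of counting error. Alternatives used DESeq2 1.42.0, limma 3.58.1 (voom) and sva 3.50.0, among others.

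The comparisons and lists were chosen with earlier results of these data known. The rule for named genes took the smallest p in each direction among called genes whose mean log2 CPM was 0 or more and whose groups do not overlap, limited to 2 identifiers per direction for want of symbols. The gene table (47357 genes, GRCr8) holds 0 Ensembl identifiers, so the planned gene lists and cell type markers were not used.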

Additional observations from a re-analysis of the deposited data

Results flagged for a closer look

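In 6699 genes the generation contrast differed between EDC and vehicle rats by edgeR's test of that difference. The difference in log2 fold change (EDC minus vehicle) was 3.26 for ENSRNOG00000016013, 3.21 for ENSRNOG00000037957, -4.004 for ENSRNOG00000017445 and -3.54 for ENSRNOG00000018992.

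Among 32 groups of 4 values examined, 5 values lay far from the other 3 of their group. Chance flags about 1 in 20 groups of independent, normally distributed values. The measures examined overlap and come from the same libraries, so the count cannot be set against that rate. F3 EDC replicate 4 gave 3 of them. Its 10 most counted genes took 27.3% of its gene counts, it scored 52.6 on the second principal component of the EDC libraries, and genes lower in F3 EDC held 19.0% of its counts. In F1 EDC, replicate 4 was the deepest with 35981898 gene counts, and in replicate 1 the genes lower in F3 EDC held 36.3% of the counts, the least of its group.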

How the results depend on the processing

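The number of genes called between F3 EDC and F1 EDC stayed within 1.5 times the 8216 reported under each alternative run. It was 8221 with RLE factors, 8273 with upper quartile factors, 8468 with DESeq2, 9176 with limma voom, 8628 with the 8 EDC libraries alone, 6660 with the multimapping covariate and 7337 with counts thinned to the smallest library (added after seeing the data). Leaving out each of the 16 libraries gave 7597 to 8401 genes for this comparison, 3576 to 4291 for the vehicle contrast and 6088 to 6786 for the difference. Which direction held more genes was not settled: 50.5% of calls were higher in F3 EDC, against 46.0% with upper quartile factors. In the vehicle contrast that share was 53.2%, 45.2% with upper quartile factors and 60.6% with no filter. With only genes of mean log2 CPM 1 or more, 818 genes in place of 1250 were over 2-fold lower, 101 in place of 325 over 4-fold lower and 20 in place of 100 over 8-fold lower, because fewer scarce genes were tested, while 120 in place of 183 were over 8-fold higher. With no filter the counts past 8-fold were 280 higher and 193 lower, and with thinned counts 147 and 65. With unstranded counts, 20 of the 8216 calls changed sign. The replicate block gave 8130, 4162 and 6532 genes in the 3 comparisons. Correlations of log2 CPM levels between F1 EDC and F3 EDC libraries were 0.903 to 0.917, as given above. A separate correlation for same-numbered EDC libraries, not taken on these levels, ran from -0.05 to 0.08. It does not show whether these rats were related. Leaving out mitochondrial genes and the planned gene lists were not run, for want of gene names.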

Other observations

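The share of gene counts held by the genes called between the EDC groups is given as a description, since these genes were chosen by that difference. The 4146 genes higher in F3 EDC held 48.8% ± 2.72 of gene counts in F3 EDC and 27.0% ± 1.20 in F1 EDC, and the 4070 lower genes held 21.1% ± 1.42 and 37.5% ± 0.796 (SD, n = 4). The vehicle groups, whose levels did not enter that contrast, stood at 43.5% ± 3.36 (F1 control) and 49.4% ± 3.47 (F3 control) for the higher genes. For the lower genes they stood at 22.4% ± 1.88 and 20.8% ± 0.554 (SD, n = 4).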
